A study of Mus musculus with 20 samples.

Results

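Mouse subiculum pyramidal cells that project to the target labelled RSC were compared with those that project to the target labelled VHN. RSC customarily stands for retrosplenial cortex, while the labels do not spell out VHN. The members are the 3 bulk RNA-seq libraries of each population, chosen by the projection target in their titles: 6 of the 12 bulk samples and of the 20 samples of the series. The other 6 bulk samples are pyramidal cells projecting to NA and to PFC (customarily nucleus accumbens and prefrontal cortex), and 8 samples are single cells. Both populations were collected the same way, as fluorescent neurons picked by hand from microdissected slices, and the series design counts the 3 libraries of a population as biological replicates. The labels used here give no strain, genotype, age, sex or tracer for either population, and do not say how many cells or animals went into a library. Libraries are numbered 1 to 3 in the order of the deposited table, and whether a number is that of the title could not be checked.

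The subiculum is the output gate of the hippocampus, and its pyramidal cells send axons to cortex, striatum, thalamus and hypothalamus. They release glutamate, loaded into vesicles by the transporters Slc17a7 and Slc17a6, and they fall into molecular classes that lie at different positions along the region and favour different targets. Neurotensin (Nts), a neuropeptide, and fibronectin (Fn1), a matrix protein, mark one such class, while the calcium buffer Calb1 and the stem cell factor receptor Kit mark others. A library of picked cells averages over every class among the cells picked, so a low level of a gene can mean few cells with much of it or many cells with little, and these 2 cases cannot be told apart in bulk.

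Depth was 17399784 to 20904126 gene fragments in RSC libraries and 15747769 to 18063655 in VHN libraries. More genes had at least 1 fragment in VHN (15035 to 15781 per library) than in RSC (14255 to 14952). Markers of the labelled cell type were abundant. Levels are given in CPM (fragment counts scaled to a common library size, adjusted between libraries by TMM). The 13 pyramidal markers summed to 6658 to 7587 CPM in RSC and 5948 to 7040 CPM in VHN. Slc17a7 stood at 571 to 609 CPM in RSC and 513 to 643 in VHN. Transcripts of inhibitory neurons set some libraries apart. Gad2, which makes GABA, stood at 0, 43.3 and 177 CPM across RSC replicates 1 to 3 and at 0.158, 0.238 and 91.9 CPM across VHN replicates 1 to 3, so 2 RSC libraries and 1 VHN library were high. Summed markers of oligodendrocytes, the myelinating cells, ran from 42.7 to 54.3 CPM in RSC and from 79.2 to 177 CPM in VHN, without overlap.

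No gene passed the test between the populations after correction for the number of genes. The edgeR quasi-likelihood test over 13916 genes called 0 (0%) at a Benjamini-Hochberg adjusted p under 0.05, and the smallest adjusted p was 0.219. At an unadjusted p under 0.05 there were 721 genes, 258 with a higher mean in RSC (1.85%) and 463 with a higher mean in VHN (3.33%). Without scaling beyond library size these became 163 and 565. Fitted on the 6 RSC and VHN libraries alone they were 512 and 422, so the excess toward VHN depended on the fit. limma-voom called 1 gene and DESeq2 called 83 (22 higher in RSC, 61 higher in VHN), with 760 and 1106 genes at an unadjusted p under 0.05. The 760 of limma-voom were nearly even, 372 with a higher mean in RSC and 388 in VHN. Those of DESeq2 were 388 and 718. The same edgeR fit called 61 genes between NA and PFC (0.438%), a pair that shares no library with RSC and VHN but the same estimate of spread. The difference between these 2 counts was not tested.

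One VHN library mattered for the count. Without VHN replicate 1, edgeR called 19 genes, each with a higher mean in the remaining VHN libraries. They were Pcdh20, Ildr2, Kit, Htr2c, Cdh4, Nnat, Arhgef28, Fgf10, Mapk4, Asphd2, Kirrel3, S100b, Podn, Ccn3, Tmcc3, Stum, Calb1, Cpne7 and Col6a1. Leaving out any other RSC or VHN library gave 0 calls. The 19 names were read after the values were seen.

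For many genes the libraries were nonetheless precise enough to limit how far the populations could differ. In 3426 genes (24.6%) the 95% limma-voom interval of the RSC minus VHN difference lay wholly inside a 2-fold change either way. This share was larger for genes of higher level. It was 0 of 1505 genes under 1 CPM and 0 of 3946 from 1 to 10 CPM, 1408 of 6242 (22.6%) from 10 to 100 CPM, 1928 of 2129 (90.6%) from 100 to 1000 CPM, and 90 of 94 (95.7%) over 1000 CPM. Below 10 CPM the median interval reached 2.58 or more on either side on the log2 scale, so for weakly expressed genes these intervals admit differences of several fold.

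**Figure D1:**
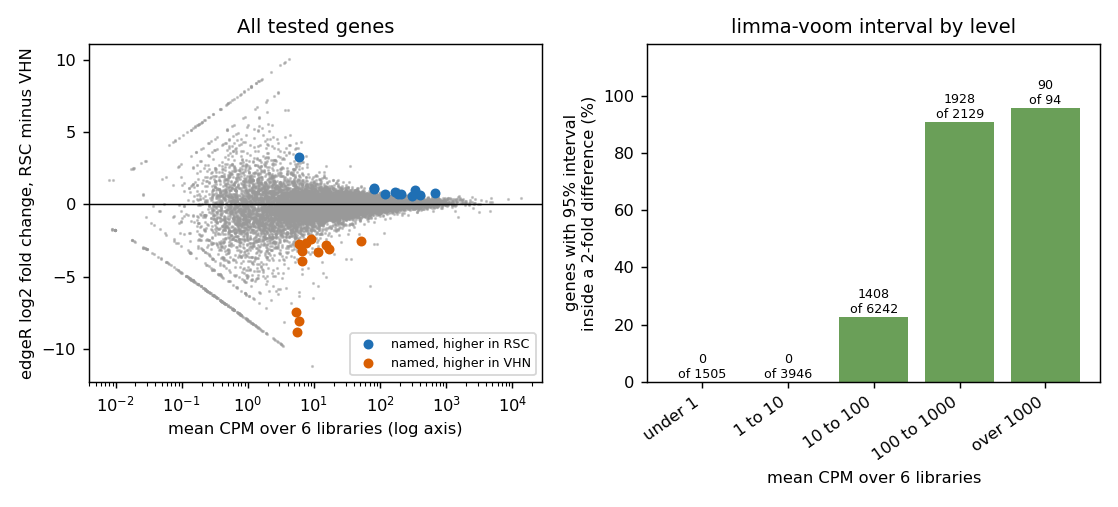
Left, the edgeR log2 fold change (RSC minus VHN) of every tested gene against its mean CPM over the 6 libraries on a log axis, with 11 of the 12 genes chosen as higher in RSC in blue and the 12 chosen as higher in VHN in orange. Right, the percent of genes in each band of mean CPM whose 95% limma-voom interval lies inside a 2-fold difference, from 0 of 1505 under 1 CPM to 90 of 94 over 1000 CPM.

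The genes with the tightest limits were part of the general equipment of neurons. Rtn3, a shaping protein of the endoplasmic reticulum, stood at 2083, 2289 and 2190 CPM in RSC and 2330, 2149 and 2067 CPM in VHN, with a 95% interval of −0.15 to 0.16 on the log2 scale. Gria2, the AMPA receptor subunit that limits calcium entry, stood at 2909, 3243 and 3003 CPM against 3033, 2835 and 2989 CPM (−0.11 to 0.20). The values of the 2 populations overlapped in both genes. Disp2, Dclk1, Ttc3, Ywhae, Napb, Dync1h1 and Rtn1 were also among the 10 most alike genes, with no interval beyond 0.25 from 0.

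Genes that mark the Nts-expressing class of subiculum were present at like levels in both. Nts stood at 402, 314 and 281 CPM in RSC and 406, 273 and 199 CPM in VHN (log2 fold change 0.18, interval −0.25 to 0.65). Fn1 stood at 567, 572 and 381 CPM against 615, 575 and 285 CPM (0.04, −0.43 to 0.58). In both genes replicate 3 was the lowest of its population, and the populations overlapped. In the other bulk populations the mean of Nts was 21.3 ± 3.71 CPM (NA) and 18.8 ± 11.2 CPM (PFC), SD over 3 libraries.

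Both vesicular glutamate transporters were also shared. Slc17a7 had an interval of −0.28 to 0.28, and Slc17a6 stood at 486, 537 and 349 CPM in RSC and 370, 427 and 290 CPM in VHN (log2 fold change 0.34, −0.08 to 0.71). Sv2c, a synaptic vesicle glycoprotein, stood at 19, 11.5 and 22.5 CPM against 26.1, 49.4 and 18.9 CPM, with overlapping libraries and an interval (−1.80 to 0.31) that admits more than a 2-fold higher level in VHN. Etv1, an ETS transcription factor of deep cortical projection cells, was the one of these markers whose libraries did not overlap, at 3118, 3072 and 3052 CPM in RSC and 2550, 2466 and 2124 CPM in VHN. Its log2 fold change was 0.37 (edgeR unadjusted p = 0.0492, adjusted p = 0.961), a 1.29-fold difference.

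Over all genes, an RSC library was about as far from a VHN library as from another RSC library. The distance was the root mean square difference of log2(CPM + 1) over the 13916 genes. It was 0.975, 1.02 and 0.913 for the 3 pairs within RSC and 0.896, 0.918 and 0.965 for the 3 pairs within VHN. The 9 pairs between the populations averaged 0.974, against 0.947 for the 6 pairs within. VHN replicate 1 lay at 0.932, 0.842 and 0.865 from RSC replicates 1 to 3, nearer to 2 of them than any 2 RSC libraries lay to each other. VHN replicates 2 and 3 lay at 0.985 to 1.07 from the RSC libraries.

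**Figure D2:**
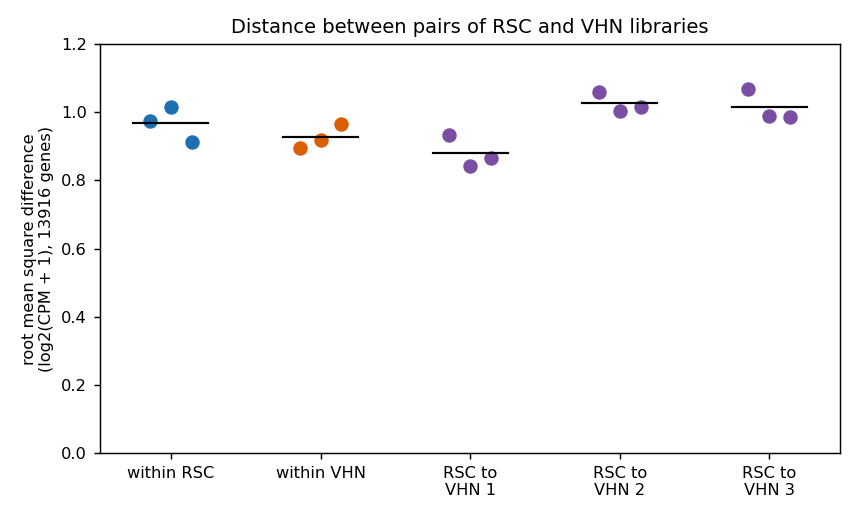
Root mean square difference of log2(CPM + 1) between pairs of libraries, with 1 point per pair and a black line at the mean of each column. Of the 3 pairs of VHN replicate 1 with RSC libraries (0.842 to 0.932), 2 sit lowest of all, and those of VHN replicates 2 and 3 (0.985 to 1.07) overlap only the upper end of the pairs within RSC (0.913 to 1.02).

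Libraries of 1 population spread to a like degree in both. The median per-gene SD of log2(CPM + 1) was 0.434 in RSC and 0.417 in VHN, and the common biological coefficient of variation was 0.701 in RSC and 0.634 in VHN (0.826 in NA and 0.764 in PFC). Of the 10 genes of at least 50 CPM that varied most within the populations, Gad2 came first, and Nnat, Zeb2 and Stum were low in VHN replicate 1 and high in the other VHN libraries. Ext2, an enzyme of heparan sulfate synthesis, was carried by 1 library, at 410 CPM in VHN replicate 2 and 18.3 to 41.4 CPM in the other 5. Pakap was likewise at 256 CPM in RSC replicate 2 and 26.2 to 107 CPM elsewhere.

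Trends toward VHN were steep and lay in genes of low level. Lack of overlap is a weak criterion with 3 libraries a side, since some genes separate fully even where populations are alike. All 3 VHN libraries stood above all 3 RSC libraries in 904 genes (6.5%), and in 1174 (8.44%) without scaling beyond library size. Of the 35 genes that also had a symbol, an unadjusted p under 0.01 and a VHN mean of at least 10 CPM, the 12 with the largest fold changes were Col6a1, Atxn3, Podn, Asphd2, Htr2c, Npy1r, Lix1, Arhgef28, Stk32c, Igsf3, Ipcef1 and Syt17. Their VHN means ran from 10.4 to 87 CPM, and their edgeR adjusted p from 0.219 to 0.845. These genes were picked for this difference, so their p-values are only a ranking. In 10 of the 12, VHN replicate 1 was the lowest VHN library (31.7% of the 8939 genes of at least 10 CPM in either population).

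Several of the genes higher in VHN encode receptors for transmitters and growth factors. Htr2c, the serotonin 2C receptor, stood at 2.37, 1.71 and 2.37 CPM in RSC and 5.36, 29.2 and 27.7 CPM in VHN (log2 fold change −3.27, interval −5.30 to −0.44, edgeR unadjusted p = 2.49e-05, adjusted p = 0.219, higher in 3 of 3 VHN libraries). VHN replicate 1 lay near the RSC libraries, and the other VHN libraries lay more than 10 CPM above it. Kit stood at 1.21, 0.0551 and 0.483 CPM against 0.42, 15.7 and 21.6 CPM (−4.43, interval −7.63 to 0.16, adjusted p = 0.219). Here VHN replicate 1 lay inside the RSC range. Npy1r, a neuropeptide Y receptor, stood at 1.38, 2.15 and 0.387 CPM against 3.78, 11.1 and 20.9 CPM (−3.18, adjusted p = 0.574), without overlap. Gpr12, an orphan receptor coupled to cyclic AMP, was weaker, at 0.0577, 0.441 and 0.0483 CPM against 1.05, 5.54 and 3.03 CPM (−4.09, adjusted p = 0.416).

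Some calcium-binding proteins and adhesion molecules had a higher mean in VHN, although their lists were mixed. Of 29 calcium-binding and calcium-signalling genes, 2 had a higher mean in RSC and 3 in VHN at an unadjusted p under 0.05 (median log2 fold change 0.09). Calb1 stood at 0, 0 and 2.66 CPM in RSC and 0.315, 37.9 and 49.4 CPM in VHN (−4.98, interval −11.5 to −0.24, adjusted p = 0.544). S100b stood at 0.577, 0.0551 and 0 CPM against 0.21, 15.1 and 41.3 CPM (−6.47, interval −9.99 to −1.09, adjusted p = 0.342). Both were high in VHN replicates 2 and 3 and near 0 in VHN replicate 1, which overlapped RSC. The protocadherin Pcdh20 stood at 0.519, 0.276 and 0.531 CPM against 0.368, 23.6 and 33.7 CPM (−5.41, interval −7.57 to 0.004, adjusted p = 0.219). Cdh4, the retinal cadherin, had 1 fragment in RSC and stood at 0.0525, 3.99 and 17 CPM in VHN. Cadm1, a synaptic adhesion molecule, differed less but in every VHN library, at 82.8, 67.3 and 64.9 CPM against 122, 108 and 149 CPM (−0.82, interval −1.34 to −0.30, adjusted p = 0.544).

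Some secreted and matrix proteins did likewise, and their lists were also mixed. Of 27 extracellular matrix genes, 3 had a higher mean in each population at an unadjusted p under 0.05 (median log2 fold change 0.14), and of 26 neuropeptide and secreted signal genes 2 did in RSC and 4 in VHN (median −0.17). The guidance ligand Slit2 stood at 0.404, 10.9 and 1.26 CPM in RSC and 8.46, 73.6 and 86.8 CPM in VHN (−3.75, interval −7.46 to −1.15, adjusted p = 0.472), with VHN replicate 1 below the highest RSC library. The growth factor Fgf10 stood at 0.0577, 0.0551 and 0.29 CPM against 0.21, 4.53 and 31 CPM. Col6a1, a chain of collagen VI, had 1 fragment in RSC and stood at 0.368, 9.88 and 23.4 CPM in VHN. Podn, a small proteoglycan, stood at 0.115, 0 and 0.0483 CPM against 0.683, 13.4 and 18 CPM. In each of these the highest value was in VHN replicate 2 or 3.

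Among genes of vesicle release, Syt17, a synaptotagmin relative, stood at 6.11, 0.276 and 2.42 CPM in RSC and 12.4, 15.4 and 17.8 CPM in VHN (−2.37, adjusted p = 0.74), and here VHN replicate 1 was close to the others. The syntaxin Stx1a stood at 7.1, 3.75 and 1.84 CPM against 7.72, 17.3 and 17.8 CPM. More abundant genes with a higher mean in VHN were Nnat, an imprinted membrane protein of developing neurons, at 4.44, 0.496 and 3.19 CPM against 3.52, 333 and 71.1 CPM, and Stum, at 4.67, 13.1 and 47.8 CPM against 13.4, 171 and 243 CPM. VHN replicate 1 lay inside the RSC range for both. The interval was −11.7 to 3.00 for Nnat and −4.67 to −0.05 for Stum.

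Levels of these genes in the NA and PFC populations stood higher still for most of them. NA and PFC libraries do not enter the RSC and VHN means. They do share in the filter, the scaling and the estimate of spread behind the p that chose the set. The comparison also uses the same VHN libraries that define the set, so it is a description only. The NA and PFC means of Htr2c were 81.1 ± 42.4 and 178 ± 37.2 CPM, and those of Kit 249 ± 103 and 283 ± 53.5 CPM (SD, n = 3 each). Calb1 averaged 107 ± 30 and 220 ± 115 CPM, and Pcdh20 139 ± 42.3 and 137 ± 8.59 CPM (SD, n = 3 each). Of the 12 genes, 7 had both the NA and the PFC mean above the VHN mean, against 2270 of 8939 genes (25.4%) with both above the higher of the RSC and VHN means.

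**Figure D3:**
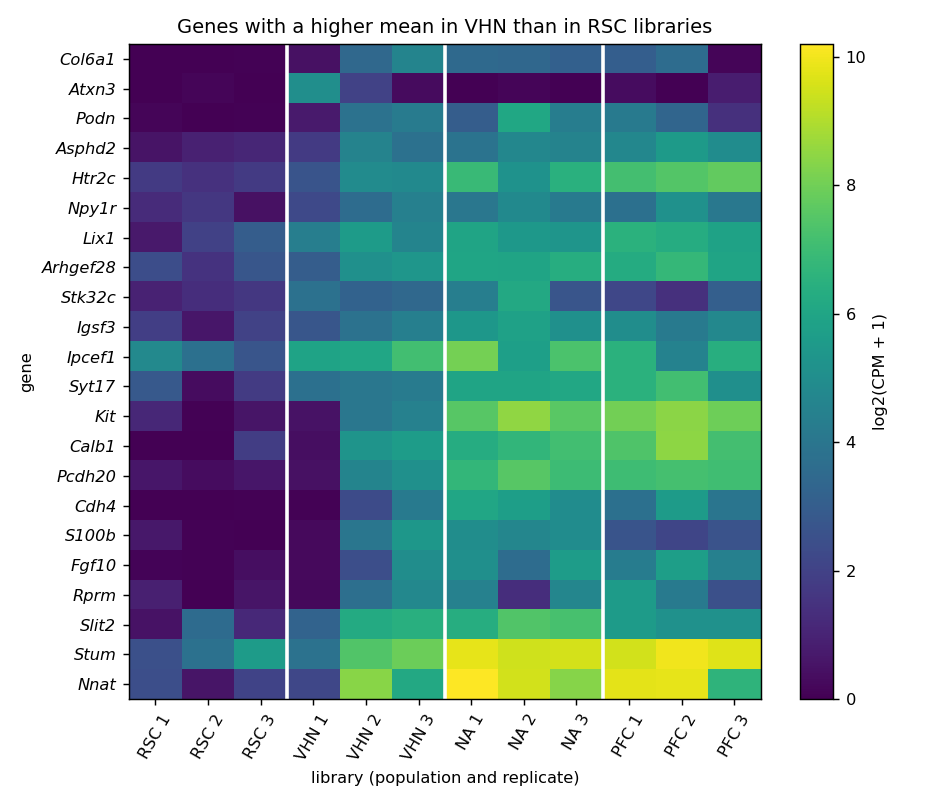
log2(CPM + 1) of 22 genes (rows) with a higher mean in VHN than in RSC, in each of the 12 bulk libraries (columns); the top 12 rows are those chosen by size of difference. VHN 2 and VHN 3 are brighter than VHN 1 in most rows (Kit 15.7 and 21.6 against 0.42 CPM), and most NA and PFC columns are brighter still.

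Several genes departed from this order among the VHN libraries, with VHN replicate 1 the highest of them. Atxn3, the deubiquitinase of spinocerebellar ataxia, was highest in VHN replicate 1, at 32.3, 3.04 and 0.233 CPM in VHN replicates 1 to 3, with 2 fragments in RSC and means of 0.0357 CPM in NA and 0.337 CPM in PFC. Stk32c, a serine/threonine kinase, was also highest in VHN replicate 1, at 12.8, 8.22 and 10 CPM against 0.981, 1.54 and 2.17 CPM in RSC. Lars2, the leucyl-tRNA synthetase of mitochondria, stood at 2720, 2103 and 951 CPM in VHN and 1419, 884 and 935 CPM in RSC. VHN replicate 3 thus lay inside the RSC range (−0.83, edgeR adjusted p = 0.845). The NA and PFC means were 31.5 and 4.21 CPM for Stk32c, and 14021 and 9538 CPM for Lars2.

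Trends toward RSC were shallower and, among the genes named, lay in more abundant ones. All 3 RSC libraries stood above all 3 VHN libraries in 864 genes (6.21%), and in 567 (4.07%) without scaling beyond library size. By the same rule 24 genes qualified, and the 12 with the largest fold changes had RSC means with a median of 225 CPM and ratios of means from 1.51 to 9.74. In 10 of the 12 the NA and PFC means were both below the RSC mean. Among the 8939 genes of at least 10 CPM in either population, both were below the higher of the RSC and VHN means in 4197.

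Epha7, a receptor for ephrin guidance cues, had the lowest unadjusted p of these. It stood at 414, 469 and 477 CPM in RSC and 226, 179 and 277 CPM in VHN (log2 fold change 0.995, interval 0.63 to 1.40, edgeR unadjusted p = 0.000167, adjusted p = 0.219, higher in 3 of 3 RSC libraries). The populations were separated by more than 100 CPM, and NA (277 ± 21.8 CPM) and PFC (297 ± 67.3 CPM; SD, n = 3 each) lay nearer to VHN. Nefm, the medium neurofilament subunit of large axons, stood at 898, 1021 and 710 CPM against 331, 591 and 565 CPM (0.82, 0.44 to 1.27, adjusted p = 0.845). Hapln4, a link protein of perineuronal nets, stood at 132, 106 and 93 CPM against 57.6, 60.2 and 36.9 CPM (1.10, 0.47 to 1.73, adjusted p = 0.643).

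Odc1, the enzyme that starts polyamine synthesis, stood at 140, 101 and 97.1 CPM in RSC and 67.8, 44.2 and 38.7 CPM in VHN (1.17, adjusted p = 0.761). B430305J03Rik, an unnamed transcript, stood at 16, 11.2 and 4.64 CPM against 0.788, 1.61 and 0.875 CPM (3.28, adjusted p = 0.845). RSC replicate 3 was the lowest RSC library in both, yet above every VHN library.

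A further 6 genes of the set differed by 1.51 to 1.82-fold. They were the kinase Wnk3, the chromatin silencing factor Mphosph8, the zinc finger gene Zfp260, the RNA-binding protein gene Nufip2, Luzp1 and Ppp1cb, a catalytic subunit of protein phosphatase 1. Ppp1cb shows how tight the values were, at 382, 358 and 370 CPM in RSC and 269, 228 and 239 CPM in VHN (0.59, interval 0.25 to 0.93, adjusted p = 0.643).

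**Figure D4:**
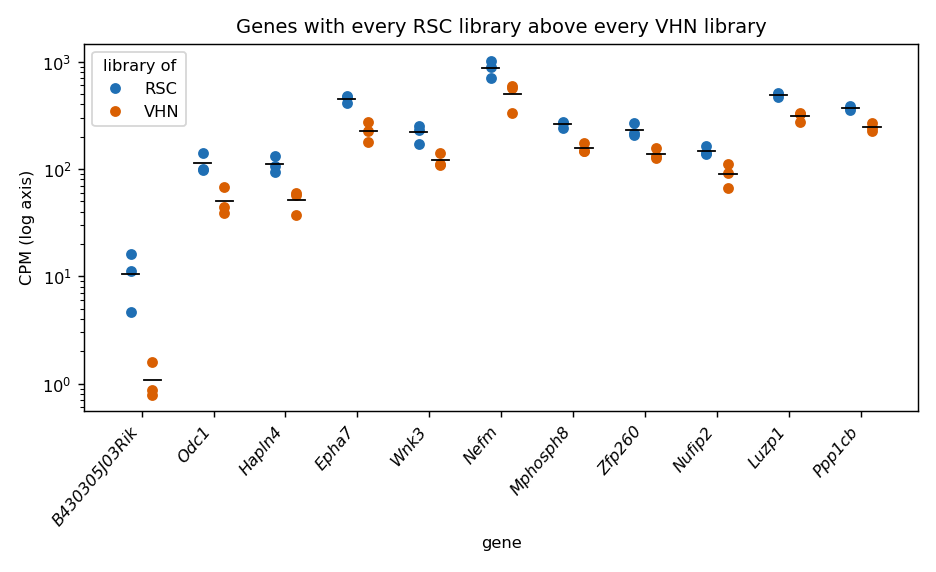
CPM on a log axis for 11 of the 12 genes in which every RSC library (blue) lies above every VHN library (orange), with 1 point per library and a black line at the mean of 3. Epha7 stands at 414 to 477 against 179 to 277 CPM, and B430305J03Rik shows the largest ratio at the lowest level.

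A few low genes had fragments in every RSC library and 0 in all VHN libraries. Chrm2, the muscarinic M2 acetylcholine receptor, stood at 4.27, 1.38 and 15.6 CPM in RSC, at least 125-fold higher than the level 3 fragments would give over the VHN libraries (edgeR unadjusted p = 0.000683, adjusted p = 0.432). Igf1, insulin-like growth factor 1, stood at 0.346, 3.36 and 5.65 CPM, at least 55.1-fold higher on the same floor (adjusted p = 0.74). The spread within RSC was itself over 10-fold for both.

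The most abundant genes leaned to RSC. Of the 94 genes over 1000 CPM, all RSC libraries lay above all VHN libraries in 34 (36.2%) and the reverse held in 0. Without scaling beyond library size the counts were 21 and 6. From 100 to 1000 CPM, RSC lay above in 280 and VHN in 77 of 2129 genes, but in 149 and 152 without that scaling. The TMM factors did not overlap, at 0.991 to 0.997 in RSC and 1.055 to 1.068 in VHN. Below 10 CPM the order turned, with VHN above in 330 and RSC above in 136 of 3946 genes from 1 to 10 CPM. The number of genes with a fragment was higher in VHN, as given above, and its part in these counts was not tested.

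Map1b, the microtubule-associated protein of axons, was the gene limma-voom called (named after its value was seen). It stood at 9527, 10200 and 9680 CPM in RSC and 7707, 7720 and 7558 CPM in VHN, a 1.28-fold difference (interval 0.28 to 0.43). By edgeR its adjusted p was 0.379. Hsp90aa1, a chaperone, stood at 1397, 1607 and 1439 CPM against 1087, 1161 and 1216 CPM (0.36, edgeR adjusted p = 0.86). Neither gene overlapped between the populations.

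Across 31 gene lists of channels, receptors, guidance and adhesion molecules, transcription factors and cell markers, edgeR called 0 members in either direction, as over all genes. A member is said to lean to a population where its mean was higher there at an unadjusted p under 0.05. These counts stand beside the shares over all genes, 1.85% toward RSC and 3.33% toward VHN, and the median log2 fold change of all genes, −0.000204. Among 22 genes reported to vary within subiculum, 9 leaned to VHN and 2 to RSC, with a median of −0.98; this list was drawn up with earlier results of these data known. It holds Kit, Calb1, Htr2c, S100b and Rprm, a cell cycle inhibitor at 0.865, 0 and 0.483 CPM in RSC and 0.158, 12.3 and 26 CPM in VHN (interval −8.71 to 0.81).

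Ion channels gave few leanings. Of 48 voltage-gated and calcium-activated potassium channel genes tested, 2 leaned to RSC and 1 to VHN (median 0.01), and 18 had an interval inside 2-fold. Kcnmb4, an auxiliary subunit of BK channels, stood at 30.2, 11.7 and 10.5 CPM in RSC and 1.52, 3.39 and 8.17 CPM in VHN (interval 0.33 to 3.94, adjusted p = 0.86). Kcnd3, an A-type channel subunit, stood at 7.73, 4.96 and 30.9 CPM against 15.2, 45.8 and 62.8 CPM, with overlap. Of 24 sodium, HCN and related channel genes, 2 leaned each way, and of 20 voltage-gated calcium channel genes none did in either direction.

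Receptors and release genes were mixed. Of 25 glutamate receptor genes, 2 leaned to RSC and 5 to VHN (median 0.05), and Grm3, a presynaptic metabotropic receptor, stood at 0.115, 0 and 1.69 CPM in RSC and 0.473, 5.66 and 22.7 CPM in VHN. Of 32 genes for monoamine, acetylcholine, adenosine or cannabinoid receptors, 1 leaned to RSC and 5 to VHN (median −0.25). Of 36 vesicle release genes 3 leaned each way (median 0.10), and 25 had an interval inside 2-fold. Synaptic adhesion genes were the best bounded list, with 40 of 50 inside 2-fold, 1 leaning to RSC and 2 to VHN (median 0.00).

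Guidance and identity genes followed suit. Of 53 axon guidance genes, 2 leaned to RSC and 2 to VHN (median −0.07), with Epha7 and Slit2 in front. Of 24 cadherins and protocadherins, 0 leaned to RSC and 4 to VHN (median −0.12). Of 54 transcription factor genes, 2 leaned to RSC and 4 to VHN (median 0.04), and 30 had an interval inside 2-fold. Tbr1, a cortical glutamatergic factor, stood at 36.7, 68.3 and 52.6 CPM in RSC and 84.1, 93.5 and 91.3 CPM in VHN (−0.77, adjusted p = 0.951), without overlap. Immediate early genes, which report recent activity or handling, leaned 1 each way among 24 (median −0.12), and stress genes 2 to RSC and 1 to VHN among 18 (median 0.19).

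Markers of other cells moved with some libraries. Gad1 and Gad2, the enzymes that make GABA, were each highest in RSC replicates 2 and 3 and VHN replicate 3, while 1 further marker, Sst, stood at 55.5 CPM in VHN replicate 3 and at no more than 0.105 CPM in the other 5. The summed interneuron list ran from 274 to 732 CPM in RSC and from 334 to 485 CPM in VHN. VHN replicate 2, one of the 2 libraries high in Kit, Calb1 and Pcdh20, held Gad2 at 0.238 CPM. Erbb4, a neuregulin receptor of interneurons, had fragments only in RSC replicates 2 (5.29 CPM) and 3 (16.9 CPM) among the 6 libraries. Igf1 was likewise highest in RSC replicates 2 and 3, whereas Chrm2 stood at 4.27 CPM in RSC replicate 1, where Gad2 had no fragment.

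Summed oligodendrocyte markers, given above, were higher in all VHN libraries. Mbp, myelin basic protein, stood at 48.7, 48.3 and 35.1 CPM in RSC and 83.6, 64.7 and 66.5 CPM in VHN, without overlap (−0.70, adjusted p = 0.977). Mbp also had a count in 197 of the 348 single cells described below, so it does not mark oligodendrocytes alone. Of 10 oligodendrocyte markers 4 were tested, with 1 leaning to VHN. Oligodendrocyte precursor markers summed to at most 2.31 CPM, and 4 of 10 astrocyte markers had no fragment in any of the 6 libraries. Of the 6 astrocyte markers tested, 2 leaned to VHN, S100b among them, and 1 to RSC, and the summed list overlapped, at 145 to 394 CPM in RSC and 70.8 to 212 CPM in VHN. Most of that sum was Slc1a2, at 387, 246 and 130 CPM in RSC and 61.1, 148 and 158 CPM in VHN. Slc1a2 had a count in 135 of the 348 single cells and averaged 261 CPM in their Rprm class, so the sum does not measure astrocytes alone. The part of interneurons, oligodendrocytes and astrocytes in the other differences was not tested.

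Single subiculum cells show where the genes with unequal means are expressed. The wells are not tied to a projection target, so they describe classes and not the RSC and VHN cells, and they form 1 pooled sample over 4 plates. A minimum of 1000 detected genes kept 348 of 384 wells, whose median depth was 112401 counts. Cells were sorted by Nts, Sv2c, Calb1 and Rprm, each called high at 50 CPM and 3 counts or more. Nts with Sv2c marked 16 cells (4.60%), Nts without Sv2c 210 (60.3%), Calb1 with low Nts 58 (16.7%), and Rprm with low Nts and Calb1 18 (5.17%). Another 3 cells had interneuron markers, and 43 cells fell in no class and were shallow (median 47158 counts).

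The genes higher in VHN had their highest class means outside the Nts classes, though many had counts in Nts cells too. Of the 12, 7 had their highest pyramidal mean in the Calb1 class and 5 in the Rprm class, and none in either Nts class. With all classes counted, Col6a1, Atxn3 and Igsf3 were highest in cells of no class (Col6a1 114 CPM, against 14.6 in the Calb1 class). Npy1r, Arhgef28, Stk32c and Ipcef1 were highest in the 3 cells with interneuron markers. Podn, placed in the Rprm class, had counts in 5.56% of its 18 cells and in 9.52% of Nts cells without Sv2c. Ipcef1 averaged 33.5 CPM in the Rprm class, 29.5 in Nts without Sv2c and 1.44 in the Calb1 class. Over 11507 genes the shares were 28.3% for Nts with Sv2c, 18.1% for Nts without Sv2c, 26.3% for Calb1 and 27.4% for Rprm. Among all genes with an unadjusted p under 0.05 and a higher mean in VHN, 44.1% of 331 peaked in the Calb1 class and 13% in Nts with Sv2c. Classes of 16 and 18 cells give noisy means, and no test was made between classes since their cells come from 1 sample.

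Individual genes give the size of these contrasts. Kit averaged 45.2 CPM in the Calb1 class, 24 in the Rprm class and 9.21 in Nts without Sv2c, with no count in the 16 Nts and Sv2c cells (0 of 16 cells allows a share of up to 18.8%). Htr2c averaged 113 CPM in the Rprm class, 16 in the Calb1 class and 11.8 in Nts without Sv2c, again with none in Nts with Sv2c. Nnat averaged 1783 CPM in the Calb1 class and 3.17 CPM in Nts with Sv2c. S100b and Slit2 differed from these. S100b averaged 147 CPM in the Rprm class, 72.6 in Nts without Sv2c and 6.21 in the Calb1 class. Slit2 averaged 34 CPM in the Rprm class, 24.4 in Nts without Sv2c and 2.22 in the Calb1 class, so both were above their Calb1 level in an Nts class.

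The genes higher in RSC had no single class. Of 11 with enough counts, 4 peaked in Nts with Sv2c, 2 in Nts without Sv2c, 4 in the Calb1 class and 1 in the Rprm class. Nefm averaged 1160 CPM in Nts with Sv2c, 850 in Nts without Sv2c, 615 in the Calb1 class and 999.96 in the Rprm class. Luzp1 averaged 474, 403, 265 and 200.1 CPM in the same order. Epha7 stood at 79.3, 75.8 and 79.8 CPM in the first 3 of these classes and at 30.7 CPM in the Rprm class. Among all genes with an unadjusted p under 0.05 and a higher mean in RSC, 37.9% of 203 peaked in Nts with Sv2c and 22.7% in the Calb1 class.

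**Figure D5:**
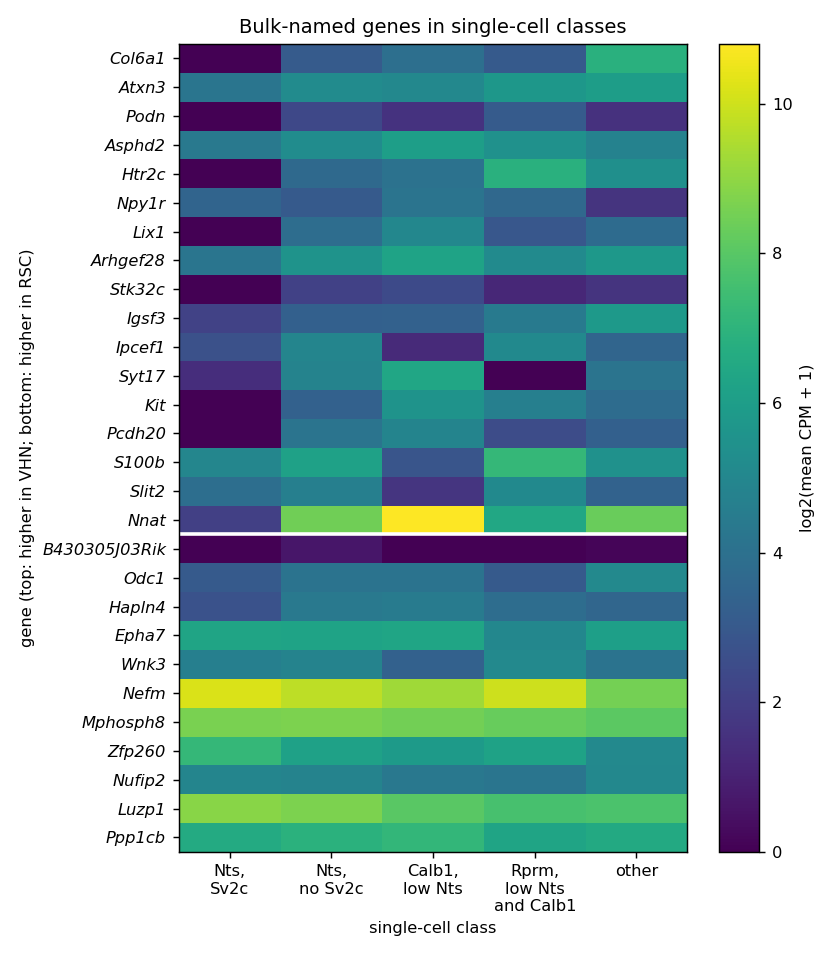
log2(mean CPM + 1) in 5 classes of single cells (columns) for genes with a higher bulk mean in VHN (above the white line) and in RSC (below it). Kit, Htr2c and Pcdh20 are at 0 in the 16 cells with Nts and Sv2c, Nnat peaks in the Calb1 class (1783 CPM), and the genes below the line show no common column.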

How the data were processed

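Bulk RNA-seq values came from a table of the form Cuffdiff writes per replicate, on genome build mm9, per the submitters' processing notes; aligner, annotation release and strand handling are not given in the sources used here. The deposited fragment numbers, unscaled per the file headers, are expected counts, and 8.51% of those above 0 were not whole, so they were rounded. Of 37607 gene rows, 32894 (87.5%) matched a symbol by Ensembl identifier. 92 spike-in rows held no fragment and 74 RSC or VHN entries marked FAIL were kept. Its replicate numbers start at 0 and those in the titles at 1; taking them in sequence serves to name libraries, and the table itself gives each population. Copies and overlapping genes may share reads. Several genes that the naming rules select are not reported here; counts over lists and sets include them. The deposited single-cell values are unscaled whole-number counts. No column of per-sample values was left unmapped.

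Genes passed filterByExpr (smallest count 10) of edgeR 4.0.16 on R 4.3.3, were scaled by TMM and were fitted together in all 12 libraries by quasi-likelihood (8 residual degrees of freedom), contrast RSC minus VHN. Intervals are from limma-voom (limma 3.58.1). DESeq2 1.42.0 was an alternative. Replicates measure only the spread between these samples. A floor of 3 fragments over a population was used where it held none; such floors cover counting error only. Named genes were the 12 per direction described in the report, up to 2 members per list by p (and abundant markers of other cells), the 10 most variable and 10 most alike genes of at least 50 CPM, and 11 fixed markers. Members, lists and rules were chosen with earlier results of these data known. Alternatives covered scaling, filters, tests, the libraries used, a replicate block and the single-cell limits.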

Additional observations from a re-analysis of the deposited data

How the results depend on the processing

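The 0 calls between RSC and VHN held with DESeq2 size factors, no scaling, a 1 CPM filter, robust dispersion, the 6 libraries alone, and without NA replicate 2 and PFC replicate 3. Calls were 93 with no filter on low counts, 83 with DESeq2 and 1 with limma-voom (Map1b), and ranged from 0 to 19 when each RSC or VHN replicate was left out. Deviations of same-numbered libraries correlated at 0.00609, −0.00305 and 0.0491, and those of differently numbered ones at −0.0311 to 0.0253. With 3 libraries a population these values cannot show whether the numbers pair libraries. With the replicate number as a block the count of calls was also 0. Without the 3 libraries high in Gad2 it was 0, with 419 genes at an unadjusted p under 0.05 by edgeR; 1 RSC library remained, assumed to vary like the other groups, and 2 VHN libraries. NA against PFC gave 23 without scaling, 514 without the filter, 580 with DESeq2, 52 with the block, 34 to 48 with an RSC or VHN replicate left out, and 16 without the libraries high in Gad2. The count of genes bounded inside 2-fold was 1077 without those libraries, 3303 with the block and 2472 to 2756 with 1 replicate left out. The ratio of distances between and within populations (1.03) stayed within the spread of pairs under other scaling, pseudocounts and a 10 CPM filter; it was 1.11 without the libraries high in Gad2 and 0.991 to 1.06 with 1 replicate left out (added after seeing the data). The ratio of the VHN to the RSC median SD was 0.96, and ran from 0.736 to 1.36 with 1 replicate left out; without the libraries high in Gad2 it could not be formed, since 1 RSC library remained. Among genes over 1000 CPM, no scaling (added after seeing the data) gave 21 with RSC above and 6 with VHN above. From 100 to 1000 CPM it gave 149 and 152, against 280 and 77 as scaled. A limit of 200 CPM gave 1.15% Nts with Sv2c, 45.4% Nts without and 30.2% in no class, and at least 3000 genes per cell gave 8.41% in no class. Of 65 named genes with an unadjusted p under 0.05, none reversed sign in any of the alternatives. The alternatives refit the same libraries in which these genes differed, so a kept sign was largely fixed beforehand and is no support. Among their values, 3 went to 0 where the library holding the fragments was left out, and 74 passed the threshold. Of the other 39 named genes, 25 changed sign somewhere.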
